A study of Mus musculus with 6 samples.

Results

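The enzymes that hydroxylate, fold and crosslink collagen were followed in embryonic mouse hearts at embryonic day 9.5. The members were 10 genes named by symbol: the prolyl 4-hydroxylase subunits P4ha1, P4ha2 and P4hb, the lysyl hydroxylases Plod1, Plod2 and Plod3, the collagen chaperone Serpinh1, and the lysyl oxidases Lox, Loxl1 and Loxl2. Of these, 9 were found among the 15330 gene rows, and all 9 passed the filter on low values. Lox was not analysed here. RNA came from 3 libraries of hearts homozygous for a CRISPR-Cas9 deletion, H2-URI d/d, called deletion hearts below, and 3 libraries of wild-type hearts. The allele lacks 373 kb upstream of Hand2, a transcription factor gene of the developing heart, and as a germline allele it is carried by cells outside the heart as well. In either group 2 libraries were female and 1 was male by their labels, and the 6 libraries shared batch number 1. Whether a library held 1 heart or a pool is not given in the sources used here, so a p-value reflects variation among these libraries, which may be technical. The comparison asks which transcripts differ in the heart when this interval upstream of Hand2 is lost.

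Collagen chains are modified while they enter the endoplasmic reticulum and before they fold. Prolyl 4-hydroxylase, built of P4ha1 or P4ha2 as catalytic subunit and P4hb as protein disulfide isomerase subunit, makes the hydroxyproline that keeps the triple helix stable at body temperature. The Plod enzymes hydroxylate lysines, and both enzyme groups need oxygen, iron, 2-oxoglutarate and ascorbate. Serpinh1, also called Hsp47, binds the folded triple helix and escorts it to the Golgi. Outside the cell, lysyl oxidases turn lysine and hydroxylysine into reactive aldehydes that join chains into fibrils. In the looping heart these steps serve the cardiac jelly, the cushions and the vessel walls.

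In the deletion hearts 2 of the 9 enzyme genes rose, the catalytic subunit P4ha2 and the lysyl hydroxylase Plod2, and 0 fell. The steps on either side of them did not pass the test: the alternative catalytic subunit P4ha1, the shared subunit P4hb and the chaperone Serpinh1 had log2 fold changes between −0.11 and 0.06. Over all genes 3.05% were called, 1.55% higher and 1.50% lower (limma, adjusted p under 0.05), so 2 of 9 higher stands above the share of all genes, although the members were not drawn at random. The median log2 fold change was 0.10 over the 9 enzymes and −0.0073 over all genes.

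P4ha1 and P4ha2 encode alternative catalytic subunits of 1 enzyme, of which P4ha2 rose and P4ha1 did not pass the test, and P4hb encodes their partner. Their promoters are therefore shown, as the 250 bases before the transcription start in RefSeq on build GRCm38.p6, which is not the build GRCm39 of the submitters' processing notes. The P4ha2 stretch lies at chr11:54100674-54100923 (plus strand), that of P4ha1 at chr10:59323046-59323295 (plus strand) and that of P4hb at chr11:120573254-120573503 (minus strand). Capitals mark every match, on either strand, of ACGTG or GCGTG, the core letters bound by hypoxia-inducible factors. Both letter strings were searched, and they share 4 letters but do not match the same bases on 1 strand.
P4ha2: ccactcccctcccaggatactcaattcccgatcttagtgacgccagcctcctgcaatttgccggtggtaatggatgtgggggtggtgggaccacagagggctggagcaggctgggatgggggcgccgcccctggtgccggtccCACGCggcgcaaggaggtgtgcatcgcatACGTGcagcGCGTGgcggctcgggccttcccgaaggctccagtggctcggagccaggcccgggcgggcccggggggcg
P4ha1: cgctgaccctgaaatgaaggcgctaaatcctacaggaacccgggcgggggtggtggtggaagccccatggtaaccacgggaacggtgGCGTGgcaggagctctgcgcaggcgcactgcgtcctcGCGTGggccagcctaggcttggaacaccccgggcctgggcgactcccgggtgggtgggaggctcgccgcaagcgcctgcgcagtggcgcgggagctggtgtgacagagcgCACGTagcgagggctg
P4hb: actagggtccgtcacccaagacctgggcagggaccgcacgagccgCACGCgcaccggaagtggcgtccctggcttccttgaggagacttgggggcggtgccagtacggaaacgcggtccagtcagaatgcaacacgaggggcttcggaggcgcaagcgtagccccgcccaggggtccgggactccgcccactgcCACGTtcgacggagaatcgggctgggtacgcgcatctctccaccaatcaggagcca
The P4ha2 stretch held 3 matches, starting 107, 78 and 69 bases upstream of the start. The P4ha1 stretch also held 3, at 163, 126 and 16 bases, and the P4hb stretch held 2, at 205 and 56 bases. RefSeq promoters were found for 6 of the 10 members, namely P4ha1, P4ha2, P4hb, Plod1, Plod3 and Serpinh1. Of the 2 genes that rose, the tally below thus covers P4ha2 and not Plod2. All 6 held at least 1 match, against 38.6% of 32851 promoters, and 3 of the 6 held at least 3, against 6.6%. The letters are rich in G and C, and so are the printed stretches: 70.0% for P4ha2, 69.6% for P4ha1 and 66.8% for P4hb, where the median promoter has 52.4%. Of the promoters not printed, Serpinh1 had 63.6%, Plod1 61.6% and Plod3 55.6%. Plod3, the lowest in G and C of the 6, held the most matches, 4. These are letter matches only. The promoters of P4ha1 and P4ha2 held the same number of them, while P4ha2 rose and P4ha1 did not pass the test. Whether the matches take part in either result was not tested.

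The libraries held between 25583210 and 32043595 reads. Hand2 stood at 1025, 1158 and 1163 normalized counts in the deletion libraries, against 3911, 3789 and 4407 in the wild-type libraries. Columns were matched to samples through the codes in the sample titles. The file recorded for a sample holds a library of the opposite group in 4 of 6 cases. Grouped by that record, 0 genes were called (limma, with 414 at an unadjusted p under 0.05), so every direction below rests on the codes. Against the tissue label, all 8 cardiomyocyte markers listed were measured, and their summed level was 858061 to 935899 normalized counts in deletion and 803128 to 910380 in wild-type libraries. Lists of other cell types held called genes too. Of 8 cushion mesenchyme markers 3 fell (Twist1, Msx1 and Postn), and the sum of the 8 was 3601 to 4652 in deletion and 4052 to 5463 in wild-type libraries. The others were not called and overlapped between the groups. Their log2 fold changes were 0.14 for Sox9, 0.18 for Prrx2, −0.04 for Prrx1, −0.16 for Pdgfra and −0.195 for Snai2. Of 8 epicardial markers 1 rose, Krt19, and their sum was 4786 to 6117 in deletion and 3112 to 4402 in wild-type libraries. Without Krt19, left out after its values were seen, the sums of the other 7 overlapped, at 2432 to 3795 in deletion and 1857 to 3115 in wild-type libraries. Among them Tbx18 and Tcf21 were not called (adjusted p = 0.0738 and 0.0545, limma) but were higher in every deletion library. Tbx18 had 1120 to 1850 in deletion against 680 to 974 in wild-type libraries, and Tcf21 287 to 489 against 155 to 224. Mab21l2 was not called either (adjusted p = 0.162, limma) but was lower in every deletion library, at 282 to 343 against 371 to 812 in wild-type libraries. Wt1, Upk3b, Upk1b and Aldh1a2 overlapped between the groups. Of 8 markers of endothelium and endocardium Kdr rose (log2 fold change 0.33, adjusted p = 0.0317, limma) and Tek fell (−0.35, adjusted p = 0.0178, limma), and their sum was 22638 to 23424 in deletion and 21941 to 23423 in wild-type libraries. Of the neural crest list 3 of 6 were measured and Ets1 fell, with sums of 1902 to 2035 in deletion and 2264 to 2442 in wild-type libraries. Of the macrophage list 2 of 6 were measured and Mrc1 rose, with sums of 275 to 334 in deletion and 133 to 186 in wild-type libraries; their remaining markers were not analysed here. The part of these cells in the results below was not tested, and in whole hearts fewer cells of a type and less RNA per cell cannot be told apart.

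P4ha2 was the enzyme gene with the clearest separation. It had 1267, 1280 and 1271 normalized counts in deletion replicates 1 to 3, against 993, 984 and 939 in wild-type replicates 1 to 3. The lowest deletion library lay well above the highest wild-type library, and the 3 deletion libraries were nearly equal. The means were 1273 ± 7.04 in deletion and 972 ± 29.0 in wild-type hearts (SD, n = 3 each), and the log2 fold change was 0.39 (SE 0.06, 95% interval 0.24 to 0.53, adjusted p = 0.0156, limma). Among all 15330 genes it ranked 144th by p. The exact two-sided permutation p over its 6 libraries was 0.1, below which 3 against 3 cannot go. The call was lost in limma without deletion replicate 1, 2 or 3 (adjusted p = 0.0821, 0.0932 and 0.0673) and without wild-type replicate 3 (adjusted p = 0.0590), with log2 fold changes of 0.36 to 0.40 over all libraries left out in turn. It was also lost in limma without an intensity trend (adjusted p = 0.0569) and in the 4 female libraries (log2 fold change 0.37, adjusted p = 0.201).

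P4ha1, the catalytic subunit with the broader expression in most tissues, had 2897, 2841 and 2783 normalized counts in deletion libraries and 2876, 2419 and 2894 in wild-type libraries. Wild-type replicate 2 was the low one, and the groups overlapped. The log2 fold change was 0.06 (95% interval −0.11 to 0.24, adjusted p = 0.692, limma), and it was −0.02 without wild-type replicate 2. P4hb, which also acts as a disulfide isomerase outside this enzyme, had 15182, 16105 and 15402 in deletion and 17281, 16001 and 15897 in wild-type libraries. These ranges overlapped as well, with a log2 fold change of −0.07 (95% interval −0.23 to 0.08, adjusted p = 0.571, limma) that turned to 0.0073 after quantile normalization.

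**Figure D1:**
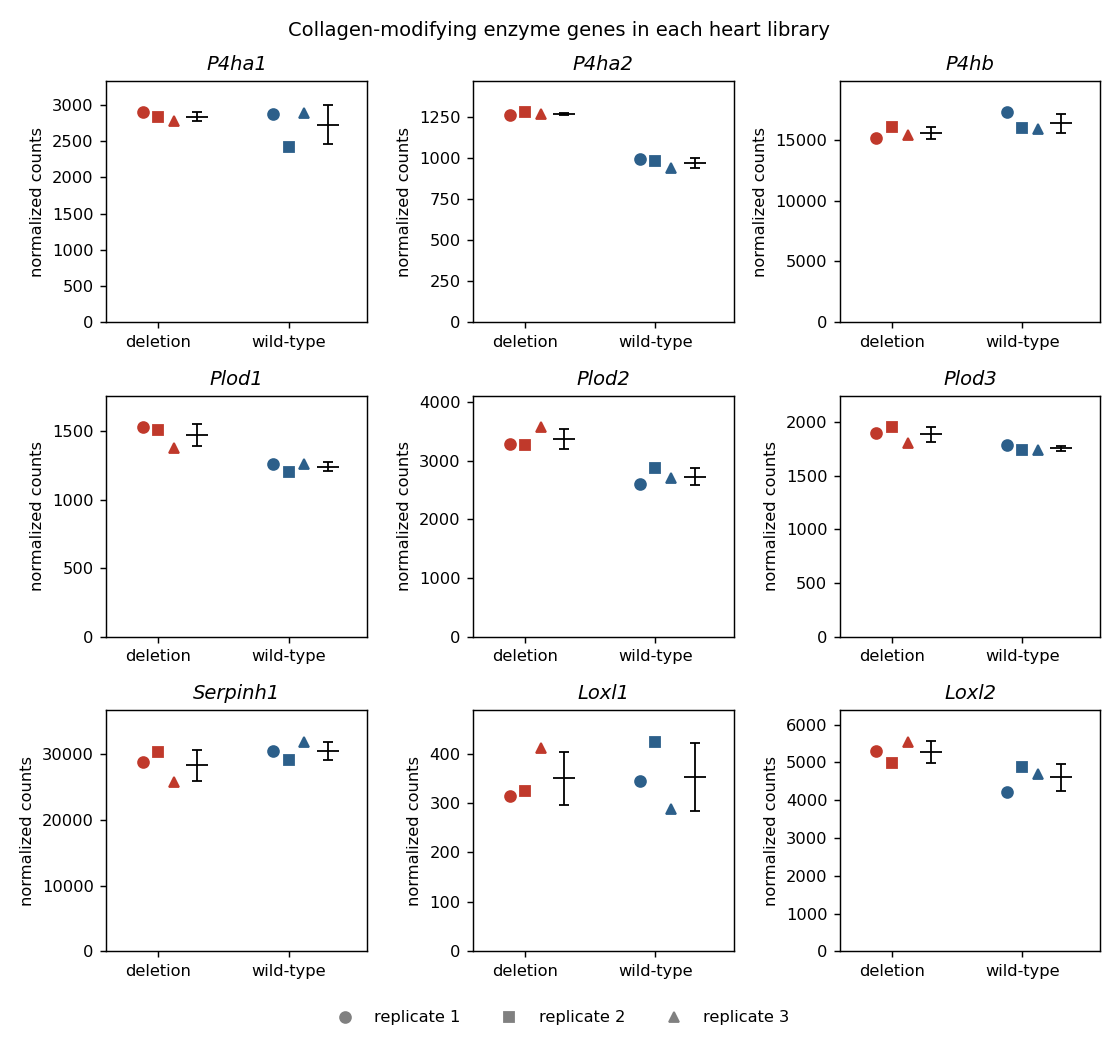
Normalized counts of the 9 measured enzyme genes, with deletion libraries on the left and wild-type libraries on the right of each panel; symbols mark the replicate, and the bar beside them is the mean with its SD (n = 3). The groups are apart for P4ha2 (1267 to 1280 against 939 to 993) and Plod2 (3275 to 3574 against 2605 to 2881) and overlap for P4ha1, P4hb, Serpinh1 and Loxl1.

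Plod2, which hydroxylates the lysines of collagen telopeptides, also rose. It had 3277, 3275 and 3574 normalized counts in the deletion libraries, against 2605, 2881 and 2705 in the wild-type libraries. No deletion library lay within the wild-type range. The means were 3375 ± 172 and 2730 ± 140 (SD, n = 3 each; deletion and wild-type hearts), with a log2 fold change of 0.31 (SE 0.07, 95% interval 0.16 to 0.46, adjusted p = 0.0420, limma). The exact permutation p was again 0.1. The call lay close to the threshold. In limma it held without wild-type replicate 2 alone among the libraries left out in turn, with adjusted p of 0.130, 0.145 and 0.163 without deletion replicates 1, 2 and 3, and 0.0511 and 0.132 without wild-type replicates 1 and 3. It was lost too in limma without an intensity trend (adjusted p = 0.134), with sex as a covariate (adjusted p = 0.0650) and in the 4 female libraries (log2 fold change 0.26, adjusted p = 0.335).

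Plod1, which hydroxylates lysines in the helical part of the chain, had 1528, 1506 and 1379 normalized counts in deletion and 1260, 1202 and 1259 in wild-type libraries. The groups did not overlap, but the gene missed the threshold at 0.24 on the log2 scale (95% interval 0.09 to 0.40, adjusted p = 0.0834, limma). It passed in DESeq2 on recovered reads (adjusted p = 0.0469), where 7.89% of genes were called and 3.73% were higher, and with equal totals without haemoglobin (adjusted p = 0.0443, limma). It did not pass in edgeR's quasi-likelihood test (adjusted p = 0.0767), where 3.26% were called and 1.75% were higher. Plod3, which also carries glycosyltransferase activity toward hydroxylysine, had 1894, 1952 and 1808 in deletion and 1783, 1734 and 1742 in wild-type libraries. Here the groups lay close together without overlapping. The log2 fold change was 0.10 (95% interval −0.03 to 0.24, adjusted p = 0.369, limma), and it turned to −0.0066 once differences that follow transcript length and GC were fitted and removed.

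Serpinh1 was the most abundant transcript of the set. It had 28878, 30338 and 25732 normalized counts in the deletion libraries, against 30501, 29158 and 31922 in the wild-type libraries. The ranges overlapped, deletion replicate 3 being the lowest. The log2 fold change of −0.11 (95% interval −0.30 to 0.08, adjusted p = 0.495, limma) turned to 0.02 after quantile normalization.

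Loxl2, a lysyl oxidase that crosslinks fibrillar and basement membrane collagen, had 5311, 4981 and 5548 normalized counts in deletion and 4212, 4891 and 4704 in wild-type libraries. The groups did not overlap, though the gap between 4981 and 4891 was narrow. On the log2 scale it stood at 0.20 (95% interval 0.03 to 0.37, adjusted p = 0.165, limma), with an unadjusted p of 0.0242. Loxl1, known mainly for crosslinking elastin, was the least abundant and the most variable. It had 313, 324 and 413 in deletion and 345, 424 and 288 in wild-type libraries, and its log2 fold change of −0.0035 had a wide interval, from −0.36 to 0.35 (adjusted p = 0.993, limma). Its sign turned under rescaling to equal totals without haemoglobin (0.04) or equal medians (0.0077) and without deletion replicate 1 (0.07), deletion replicate 2 (0.05) or wild-type replicate 2 (0.14).

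**Figure D2:**
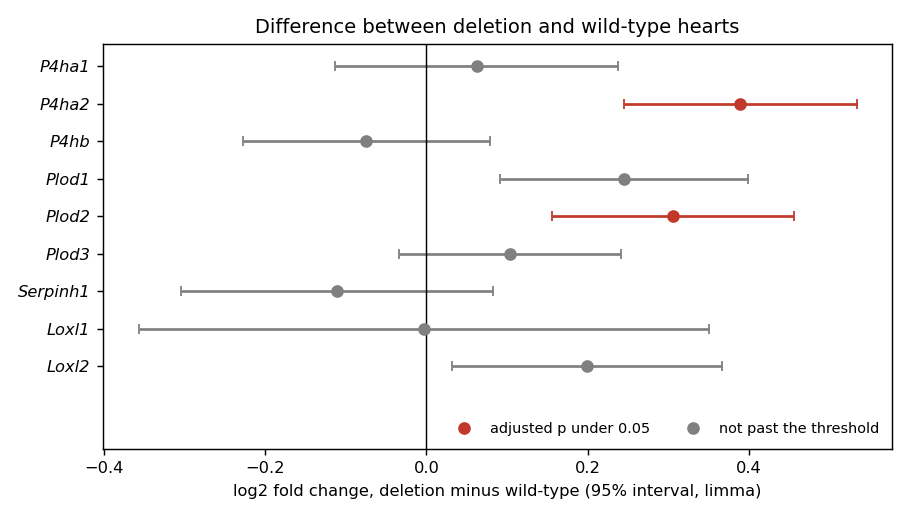
Log2 fold change of each enzyme gene, deletion minus wild-type, with its 95% interval from limma; red points passed an adjusted p of 0.05 over all genes. P4ha2 (0.39) and Plod2 (0.31) passed, and the interval of Loxl1 (−0.36 to 0.35) was the widest.

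Read together, 5 of the 9 enzymes had every deletion library above every wild-type library (P4ha2, Plod1, Plod2, Plod3 and Loxl2) and 0 had every one below. Among all genes 27.4% were apart, 12.9% in the higher direction and 14.5% in the lower. By log2 fold change 6 of the 9 were above 0, as were 48.4% of all genes. The calls by edgeR's quasi-likelihood test were the same 2 genes, P4ha2 (adjusted p = 0.0146) and Plod2 (adjusted p = 0.0372).

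Levels can be set beside each other only per transcript length, here the longest annotated transcript in GENCODE M21. Per kilobase, Serpinh1 stood at 12452 normalized counts in deletion and 13424 in wild-type hearts, and P4hb at 5440 and 5730. Loxl2 followed at 993 and 866, Plod2 at 921 and 745, and P4ha1 at 703 and 675. Chaperone and shared subunit were thus far above the hydroxylating enzymes in both groups. Plod3 had 575 and 534, P4ha2 416 and 318, Plod1 359 and 303, and Loxl1 106 and 107 per kilobase in deletion and wild-type hearts.

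Some neighbours in this order could not be separated. Loxl2 and Plod2 overlapped in the deletion libraries (937 to 1044 and 894 to 976) but lay just apart in the wild-type libraries (792 to 920 and 711 to 786). Plod2 and P4ha1 were apart in deletion hearts (894 to 976 and 688 to 716), whereas in wild-type hearts they overlapped (711 to 786 and 598 to 716). P4ha2 and Plod1 were likewise apart in deletion libraries (414 to 418 and 337 to 373) and overlapped in wild-type libraries (307 to 325 and 293 to 308). No transcripts of these members shared a stretch of 50 bases with each other. Exons of the opposite strand overlap 11.7% of the exon bases of Plod3 (Znhit1), 6.4% of Plod2 and 5.6% of Loxl2. The strand setting of the counting is not given in the sources used here, so reads in those stretches cannot be assigned.

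**Figure D3:**
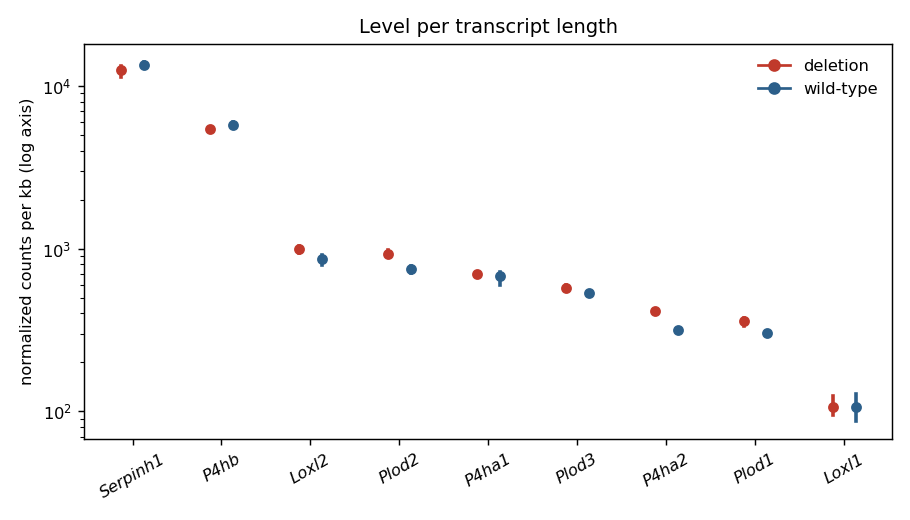
Normalized counts per kilobase of the longest annotated transcript, on a log axis, for deletion (left, red) and wild-type (right, blue) libraries; points are means and lines run from the lowest to the highest of 3 libraries. Serpinh1 and P4hb lie highest, at 12452 and 5440 in deletion hearts, and Loxl1 lies lowest, at 106.

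Ratios of transcripts within a library do not depend on how libraries are scaled. The ratio of P4ha2 to P4ha1 was 0.437, 0.451 and 0.457 in the deletion libraries, against 0.345, 0.407 and 0.324 in the wild-type libraries. Every deletion library had more P4ha2 relative to P4ha1 than any wild-type library, with a log2 difference of 0.33 between the group means. The ratio of P4hb to the sum of both catalytic subunits was 3.65, 3.91 and 3.80 in deletion and 4.47, 4.70 and 4.15 in wild-type libraries, a log2 difference of −0.23. These are ratios of counts, not of levels per length, and P4hb was lower relative to the catalytic subunits in every deletion library than in any wild-type library. Both ratios were apart between the groups with an exact two-sided permutation p of 0.1, the smallest possible here.

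Among the lysyl hydroxylases, the ratio of Plod3 to Plod1 was 1.239, 1.296 and 1.311 in deletion and 1.415, 1.443 and 1.384 in wild-type libraries, a log2 difference of −0.14 with the groups apart (exact permutation p = 0.1). The ratio of Plod2 to Plod1 was 2.14, 2.17 and 2.59 in deletion and 2.07, 2.40 and 2.15 in wild-type libraries. These overlapped: the log2 difference was 0.06 (exact permutation p = 0.6), and it became −0.03 without deletion replicate 3. The data thus do not separate the response of Plod2 from that of Plod1.

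The enzymes were then set against some of their substrates. Col1a1, Col1a2 and Col3a1 encode the chains of collagen types I and III. Col3a1 had 1443, 1748 and 2061 normalized counts in deletion and 3931, 4668 and 3936 in wild-type libraries, or −1.26 on the log2 scale (adjusted p = 0.00126, limma). Col1a1 had 472, 655 and 673 in deletion and 1002, 2028 and 869 in wild-type libraries (−1.03, adjusted p = 0.0749, limma), and Col1a2 had 1307, 1759 and 1603 against 1387, 1925 and 1257 in wild-type libraries (0.04). Of these chains Col3a1 fell, and Col1a1 was lower in every deletion library without passing. Col1a1 passed without wild-type replicate 2 (−0.66, adjusted p = 0.0372, limma) and with the length and GC trend removed (−1.19, adjusted p = 0.0344, limma), and the sign of Col1a2 turned in several alternatives. The ratio of Serpinh1 to the sum of these chains was 8.97, 7.29 and 5.93 in deletion and 4.83, 3.38 and 5.27 in wild-type libraries, a log2 difference of 0.72. That of Plod2 to the same sum was 1.02, 0.787 and 0.824 in deletion and 0.412, 0.334 and 0.446 in wild-type libraries, a log2 difference of 1.14. Both were apart between the groups (exact two-sided permutation p = 0.1 each). Col3a1, in the denominator of both, was known to be lower when these ratios were chosen. These chains are only part of the collagen measured. Over all 10 measured fibrillar chains the sums overlapped, at 30761 to 38967 normalized counts in deletion and 32106 to 37078 in wild-type libraries. Those of the 9 network and beaded filament chains were higher in every deletion library, at 41644 to 47801 against 36944 to 40918. Of these 9 chains 0 were called higher and 1 lower. Col4a1, the most abundant, overlapped between the groups, at 21146 to 24853 in deletion and 19772 to 21358 in wild-type libraries (adjusted p = 0.304, limma).

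**Figure D4:**
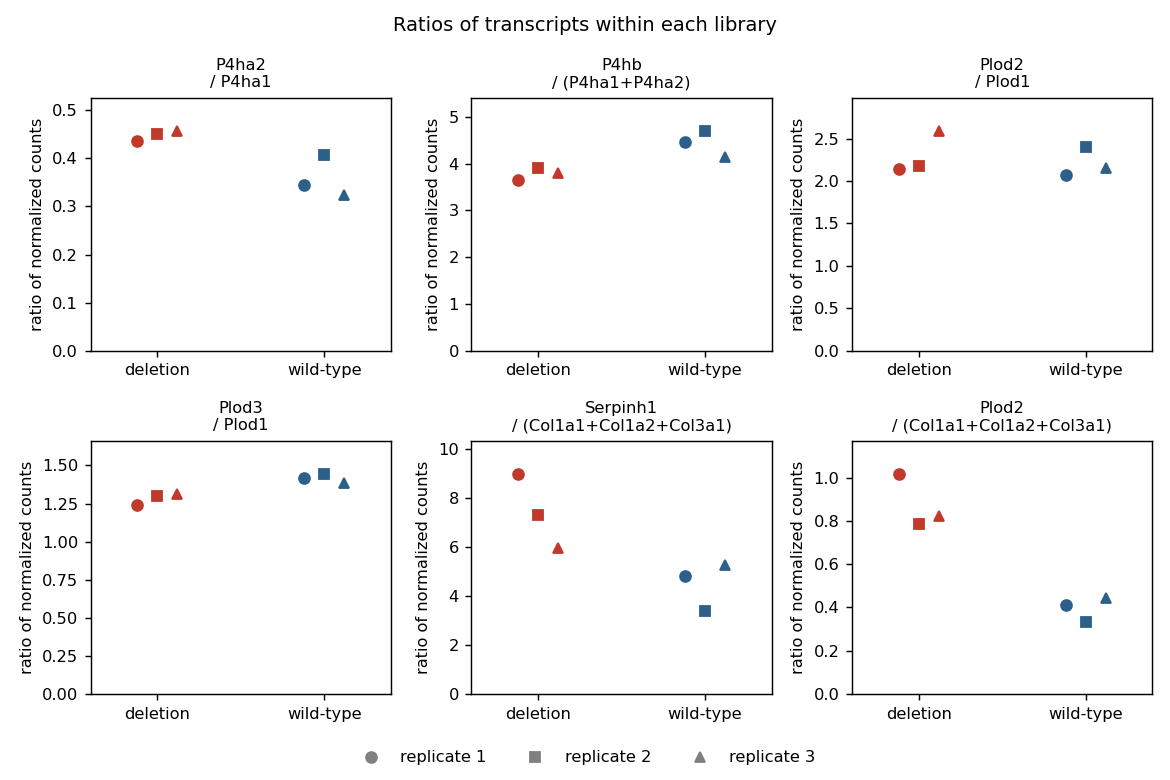
Ratios of normalized counts within each library, deletion on the left and wild-type on the right; symbols mark the replicate. The groups are apart in 5 of the 6 panels, and overlap for Plod2 to Plod1 (2.14 to 2.59 against 2.07 to 2.40).

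In the rest of the collagen pathway most genes did not pass the test, as was so for 14863 of all 15330 genes. Of 45 further genes, 43 were measured, of which 1 rose, 3 fell and 39 did not pass, with a median log2 fold change of −0.01. Over all genes 1.55% were called higher and 1.50% lower, so the 3 of 43 that fell stand above that share, although the list was not drawn at random. Among the other hydroxylases and glycosyltransferases 0 of 9 were called (limma, with 1 at an unadjusted p under 0.05). Colgalt1, the main collagen galactosyltransferase and the most abundant of them, had 2987 ± 96.1 normalized counts in deletion and 2948 ± 85.2 in wild-type hearts (SD, n = 3 each; log2 fold change 0.02, which was −0.0053 without deletion replicate 1 and −0.05 with the length and GC trend removed). Among the other folding and export factors 0 of 15 were called, with 4 at an unadjusted p under 0.05. Pdia3, a disulfide isomerase and the most abundant, had 20640 ± 542 in deletion and 25549 ± 1564 in wild-type hearts (log2 fold change −0.31, adjusted p = 0.0600, limma). It passed in DESeq2 (adjusted p = 0.00129), with robust variances (adjusted p = 0.0486, limma) and without wild-type replicate 2 (adjusted p = 0.0256, limma).

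In propeptide processing 1 of 8 measured genes rose and 0 fell. It was Tll1, a metalloprotease related to the procollagen C-proteinase Bmp1, with 577 ± 48.9 normalized counts in deletion and 178 ± 5.26 in wild-type hearts (SD, n = 3 each; log2 fold change 1.68, adjusted p = 5.19e-05, limma). Of 11 other genes of crosslinking and fibril assembly 3 fell and 0 rose. They were the small proteoglycan Bgn at 326 ± 42.6 in deletion and 527 ± 49.6 in wild-type hearts (−0.69, adjusted p = 0.0170), the microfibril-associated Fbln2 at 306 ± 94.1 and 573 ± 101 (−0.93, adjusted p = 0.0398), and the matricellular Postn at 151 ± 65.9 and 352 ± 82.3 (−1.27, adjusted p = 0.0412), all in limma. Postn is also on the cushion mesenchyme list, of which 3 of 8 markers fell. With libraries left out in turn, 0 to 5 of the 43 pathway genes were lower: 0 without deletion replicate 1 or 2 or wild-type replicate 3, and 5 without wild-type replicate 1. Bgn lost its call without deletion replicates 1 or 2 or wild-type replicate 3 (adjusted p from 0.0597 to 0.0951), and Fbln2 and Postn without those or wild-type replicate 2 (adjusted p from 0.0539 to 0.172).

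Of 27 measured collagen chains and elastic fibre genes 2 fell, 1 rose and 24 did not pass, with a median log2 fold change of 0.15. Among all genes 1.50% were called lower and 1.55% higher. In the fibrillar list 1 of 10 fell, Col3a1. In the list of network and beaded filament chains 1 of 9 fell, Col8a1, a short-chain collagen of vessel wall and valves, at 151 ± 6.96 normalized counts in deletion and 253 ± 27.3 in wild-type hearts (SD, n = 3 each; log2 fold change −0.74, adjusted p = 0.0173, limma). Among 8 elastic fibre genes, whose elastin and microfibrils are other sites of lysyl oxidase action or assembly, 1 rose, the microfibril gene Fbn2, at 14714 ± 824 in deletion and 10077 ± 602 in wild-type hearts (0.55, adjusted p = 0.00622, limma). The call of Col8a1 was lost without deletion replicate 1, 2 or 3 or wild-type replicate 3 (adjusted p from 0.0658 to 0.0824).

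The hydroxylases depend on oxygen, so genes of its sensing were counted beside them. Of 16 measured genes of oxygen sensing and the hypoxia response 8 rose and 0 fell, with a median log2 fold change of 0.35. Over all genes 1.55% were called higher and 1.50% lower, with a median of −0.0073. Those with the smallest p were Vegfa (0.57), Pfkp (0.43) and Slc2a1 (0.42). Another that rose, named after its values were seen, was Egln1, the prolyl hydroxylase that marks hypoxia-inducible factors for decay, at 3572 ± 152 in deletion and 2796 ± 121 in wild-type hearts (SD, n = 3 each, log2 fold change 0.35, adjusted p = 0.0212, limma). The call of Egln1 was lost with its sign kept in 8 of the 24 alternatives. Among these was the fit with the length and GC trend removed (0.26, adjusted p = 0.112, limma). The count of 8 depended on single libraries: it was 1 without deletion replicate 1 or 2, and 3 without deletion replicate 3 or wild-type replicate 3. It was also 1 without an intensity trend, 0 in the 4 female libraries and 5 with sex as a covariate. P4ha2 and Plod2, which are known targets of hypoxia-inducible factors, had log2 fold changes of 0.39 and 0.31. The 16 measured genes of the oxygen list ran from −0.15 to 0.57. P4ha1 and Loxl2, also described as such targets, had 0.06 and 0.20 and did not pass. The part of hypoxia-inducible factors in these values was not tested.

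The other disulfide isomerases and chaperones of the endoplasmic reticulum had log2 fold changes below 0 throughout. Of 14 measured, 5 fell and 0 rose, and the median log2 fold change was −0.28, where 1.50% of all genes were called lower and 1.55% higher. Those with the smallest p were the co-chaperone gene Dnajc3 (−0.52, adjusted p = 0.00622), the secreted factor gene Manf (−0.58, adjusted p = 0.0265) and Creld2 (−0.50, adjusted p = 0.0352), all in limma. In 12 of the 14 every deletion library lay below every wild-type library, which was so for 14.5% of all genes. P4hb and Serpinh1, which work in the same compartment, had −0.07 and −0.11 and overlapped between groups. The count of 5 was 1 without any 1 deletion library or wild-type replicate 3, and 9 without wild-type replicate 2. It was 0 without an intensity trend and in the 4 female libraries, 2 with sex as a covariate, 3 with equal medians or quantile normalization and 9 in DESeq2.

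**Figure D5:**
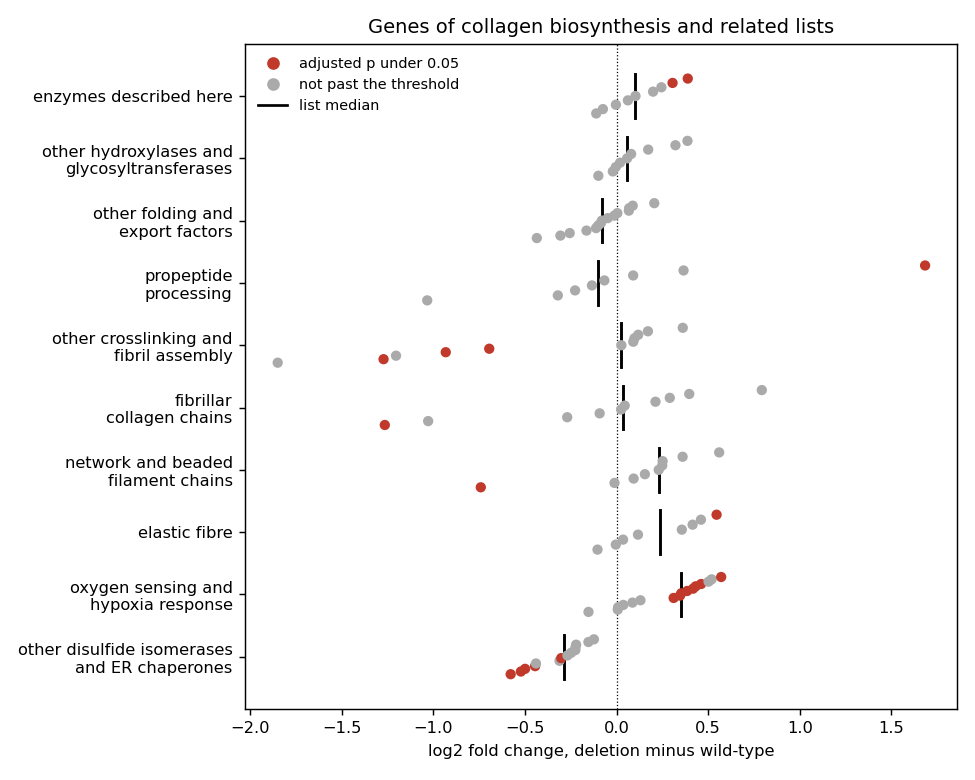
Log2 fold change, deletion minus wild-type, of every measured gene in the 10 lists, with red points past an adjusted p of 0.05 (limma) and a black line at each list's median. The enzymes have a median of 0.10, the oxygen list 0.35 and the chaperone list −0.28.

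By the root mean square difference of centred log2 values over the 6 libraries, the genes with a profile most like that of P4ha2 were Adgrb2, Ankzf1, Wiz, Zfp516 and Sgsh, at 0.03 to 0.04, where the median of 11072 candidate genes was 0.23. Their log2 fold changes lay between 0.33 for Zfp516 and 0.42 for Adgrb2. None of the 5 belongs to the collagen pathway lists.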

How the data were processed

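Total RNA of dissected hearts was read as paired-end, stranded poly(A) libraries made from 300 ng, per the labels' protocols. The submitters' processing notes name STAR 2.7.9a, featureCounts of Subread 2.0.1 and DESeq2 1.30.1, with GRCm39. The deposited values are a signal per gene, normalized counts: the authors divided reads by a size factor for each library, per the file names and the tools noted. The sources used here give no annotation, strand setting or gene filter. All values of each column were whole multiples of 1 read (100% within a tolerance of 0.01), so reads were recovered.

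The main test was limma with an intensity trend (version 3.58.1, in R 4.3.3). It used log2 of the normalized count plus a pseudocount of 1, for 15330 genes with a mean of at least 10, a filter that removed 0, with two-sided p-values adjusted by Benjamini-Hochberg over all genes. Fold changes on this scale understate those of low genes. Counts of libraries within a group differed by more than sampling noise, with a chi-square per gene of 10.1 or more. edgeR (4.0.16) and DESeq2 (1.42.0) on recovered reads were alternatives.

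Members and lists were chosen with earlier results of these data known. All members were named, and from each other list up to 3 genes past the threshold by p, or the most abundant gene where none passed, with Col1a1, Col1a2 and Col3a1; exceptions are marked. Ratios with Lox were not computed. Transcript lengths, GC content and exon overlaps came from GENCODE M21 (GRCm38), and promoters from RefSeq (GRCm38.p6).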

Additional observations from a re-analysis of the deposited data

How the results depend on the processing

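The directions of P4ha2, Plod1, Plod2 and Loxl2 held under every alternative but the recorded file assignment. The numbers of enzymes, collagen pathway genes and matrix genes called were small, so single calls near the threshold moved them.

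Without an intensity trend in the variance 73 genes were called higher and 73 lower, with 0 enzymes, 0 pathway and 0 endoplasmic reticulum genes lower and 1 oxygen gene higher. DESeq2 on recovered reads called 539 higher and 600 lower, 8 pathway genes and 9 endoplasmic reticulum genes lower and 4 collagen or elastic fibre genes higher. Equal medians and quantile normalization gave 3 endoplasmic reticulum genes lower. Equal totals without haemoglobin gave 393 higher calls. In the 4 female libraries 12 genes were higher and 23 lower, with 0 enzymes, 0 oxygen genes, 0 pathway and endoplasmic reticulum genes lower, and 0 higher and 1 lower among collagen and elastic fibre genes; these fits have fewer samples. With sex as a covariate 1 enzyme, 5 oxygen genes and 2 endoplasmic reticulum genes were called. Length and GC removal moved the Plod3 to Plod1 difference to −0.19.

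The replicate numbers did not pair the libraries: same-numbered libraries had correlations of −0.035, −0.121 and −0.137 across genes, and none correlated best with its own number. With the replicate block 96 genes were higher and 110 lower, with 0 enzymes, 1 oxygen gene higher, and 1 collagen or elastic fibre gene and 2 endoplasmic reticulum genes lower. With the replicate block and the trend removed 122 were higher, among them 2 oxygen genes, 3 endoplasmic reticulum genes were lower, and Plod3 was at −0.0066. The replicate block left the differences in ratios as they were, since they are means of the same pairs.

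Under the recorded file assignment 0 genes were called in either direction, in every list. Log2 fold changes were then −0.10 for P4ha1, −0.10 for P4ha2, 0.044 for P4hb, −0.16 for Plod1, −0.038 for Plod2, −0.068 for Plod3, 0.35 for Loxl1 and −0.041 for Loxl2; −0.63 for Tll1, 0.40 for Bgn, 0.66 for Fbln2, 0.77 for Postn, 0.64 for Col3a1, 0.11 for Col8a1, −0.14 for Fbn2, −0.20 for Vegfa, −0.23 for Pfkp, −0.16 for Slc2a1, 0.11 for Dnajc3, 0.11 for Manf, 0.78 for Col1a1, −0.014 for Colgalt1, 0.076 for Pdia3, −0.16 for Egln1 and 0.076 for Creld2. The differences in log2 ratio were 0.0017 for P4ha2 to P4ha1, 0.14 for P4hb to the catalytic subunits, 0.090 for Plod3 to Plod1, −0.61 for Serpinh1 to collagen chains and −0.55 for Plod2 to them. By the codes, that assignment mixes both groups.

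Other sign changes were those of Plod3 (−0.0066), Colgalt1 (−0.047) and Col1a2 (−0.069) with the trend removed, with or without the block, of Col1a2 in female libraries (−0.11), of P4hb (0.0073) and Serpinh1 (0.019) after quantile normalization, and Loxl1 with equal medians (0.0077) and equal totals (0.042). With each library left out, 42 to 466 genes were higher and 61 to 695 lower, 0 to 2 enzymes were higher, 0 to 5 pathway genes lower, 1 to 8 oxygen genes higher, 1 to 9 endoplasmic reticulum genes lower, and 1 to 2 collagen or elastic fibre genes higher and 1 to 3 lower. Over the same fits the log2 fold change ran from −0.023 to 0.11 for P4ha1, from −0.14 to 0.14 for Loxl1, from −0.081 to 0.23 for Col1a2 and from −0.0053 to 0.043 for Colgalt1, and the Plod2 to Plod1 difference from −0.027 to 0.12. The cause of these changes was not tested.

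With 3 libraries a group, the intervals of the enzymes not called reached up to 0.40 for Plod1 and down to −0.36 for Loxl1.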

Other observations

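Loxl1, which was not called between the groups, varied within them, and its order followed that of the globin transcripts carried by primitive red cells. This was noticed after the values were seen. Loxl1 had 313, 324 and 413 normalized counts in deletion replicates 1 to 3, where Hbb-y had 26633, 73395 and 137683. In wild-type replicates 1 to 3 Loxl1 had 345, 424 and 288 and Hbb-y 68030, 111609 and 37220. In both groups the library with the most globin had the most Loxl1, and the one with the least had the least. The order was not particular to Loxl1. Col1a1 shared it, at 472, 655 and 673 in deletion and 1002, 2028 and 869 in wild-type replicates 1 to 3. How many of all genes share it was not counted. The 7 measured erythroid markers summed to 84673 to 451164 in deletion and 119433 to 348559 in wild-type libraries. P4ha2 did not share this order: its deletion values spanned 1267 to 1280. The part of blood cells in the values of Loxl1 was not tested.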
